A study of Homo sapiens with 2 samples.

Results

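The rows described here are the microRNA and precursor microRNA entries of a table of FPKM values from RKO, a human cell line derived from a colorectal carcinoma. FPKM counts the fragments on a gene per kilobase of its length, scaled to the depth of the library. A row was taken when the table typed it as miRNA or Precursor_miRNA and its mean over both libraries was at least 1 FPKM. This left 110 of 1500 microRNA rows, or 7.33%, in a table of 40205 rows. Of the 110, 64 were typed miRNA and 46 Precursor_miRNA. A further 276 microRNA rows lay above 0 but under the minimum, and 1114 were listed at 0 in both libraries. The rows were thus selected on their FPKM in these same libraries, and their levels are given as a description.

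The study knocked down hnRNPU, which binds both RNA and DNA in the nucleus and is also known as scaffold attachment factor A, and asked how the RNA profile of the cells then differed. The sihnRNPU group was 1 library of RKO cells transfected with an siRNA against hnRNPU. The siNC group was 1 library of RKO cells transfected with a control siRNA. Total RNA was taken from both, and neither the time after transfection nor the siRNA sequences are given in the sources used here. With 1 library per group no difference has a replicate check, no test between conditions was possible, and "higher" and "lower" describe these libraries alone.

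A microRNA begins as a stretch of a long primary transcript, which is a noncoding RNA of its own or the transcript of a host gene. Within a host gene it lies in an intron or an exon. DROSHA and DGCR8 cut the hairpin out in the nucleus, XPO5 carries it to the cytoplasm, DICER1 trims it to a duplex, and one strand is loaded into an Argonaute protein. The loaded strand pairs with target mRNAs mainly through its seed, the bases near its 5′ end, so that microRNAs with the same seed form a family with overlapping targets. The let-7 family silences growth genes such as RAS and HMGA2, and miR-221 and miR-222 silence the cell cycle inhibitor CDKN1B. miR-31 is known for its high levels in colorectal tumours, and miR-34a is induced by p53.

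The mature sequences below are those of the seed families and of miR-31, on which the results turn. They run 5′ to 3′ and were copied from RefSeq (GRCh38.p14), with bases 2 to 8, the seed, in capitals. Of the 110 rows, 93 had a mature sequence in that table. Members of the let-7 family share GAGGUAG.
let-7a-5p: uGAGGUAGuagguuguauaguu
let-7d-5p: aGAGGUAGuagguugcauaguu
let-7f-5p: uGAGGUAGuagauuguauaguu
let-7g-5p: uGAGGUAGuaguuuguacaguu
let-7i-5p: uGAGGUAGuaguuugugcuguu
The miR-221 and miR-222 pair shares GCUACAU.
miR-221-3p: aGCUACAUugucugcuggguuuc
miR-222-3p: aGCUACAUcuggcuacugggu
The miR-29 family shares AGCACCA.
miR-29a-3p: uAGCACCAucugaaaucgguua
miR-29b-3p: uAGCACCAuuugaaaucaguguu
miR-29c-3p: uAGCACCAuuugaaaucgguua
The miR-196 family shares AGGUAGU, which is the let-7 seed moved by 1 base.
miR-196a-5p: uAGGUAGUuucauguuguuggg
miR-196b-5p: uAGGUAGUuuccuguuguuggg
miR-31, with no other member of its seed here, reads as follows.
miR-31-5p: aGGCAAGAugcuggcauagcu

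The listed position of a row mostly spans a mature arm (all but 3 rows cover under 30 bases), but its FPKM was divided by the length of the hairpin, 83.5 bases at the median. With that length, 93 of the 110 rows came out in whole reads in both libraries. In the other 17, among them MIR5047, MIR548D1 and MIR1244-1, reads were fractional. Fractions are left when a read is divided between similar or overlapping genes. They are also left when the length used here is not the one behind the FPKM, and the read number is then off. Which of these applies was not tested, for MIR548D1 or for any other row. Depth was 39807025 reads in the sihnRNPU library and 31801650 in the siNC library, so 1 read on a hairpin of 80 bases equalled 0.314 and 0.393 FPKM. A count of 0 allows up to 3 reads, or 0.942 and 1.18 FPKM on such a hairpin. The rows are thin: both libraries together held a median of 17 reads per row, from 4 to 1444, and 52 rows had under 10 reads in each library. Intervals below are exact 95% Clopper-Pearson intervals of the FPKM ratio from these reads, and they cover counting error only. Reads of a mature microRNA, of its hairpin, of the primary transcript and of an overlapping host RNA cannot be told apart in these values.

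HNRNPU itself stood at 75.4 FPKM in the sihnRNPU library and 239 FPKM in the siNC library, 31.5% of the siNC level. The epithelial markers EPCAM, KRT8 and KRT18 were present, with a sum over the list of 98.7 and 106 FPKM, and CDH1 was at 0. Of 4 colon markers only CDX2 passed 1 FPKM, at 4.41 and 4.83 FPKM, and KRT20 was at 0. The 4 fibroblast markers summed to 0.0131 FPKM in the sihnRNPU library and 0 in the siNC library, and the 4 blood and immune markers were at 0 in both. Rescaling to an equal FPKM sum would move every row by 0.03 on the log2 scale, the median ratio would move it by -0.04 and the upper quartile by -0.02.

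The 110 rows summed to 1194 FPKM in the sihnRNPU library and 1488 FPKM in the siNC library. The 12 highest rows held 70.9% and 72.7% of these sums. Only 3 rows had a mean of at least 100 FPKM. MIR5047 had 189 FPKM in the sihnRNPU library, against 217 FPKM in the siNC library, MIR3064 had 142 against 155 FPKM, and MIR29A had 131 against 158 FPKM. Another 17 rows had a mean of 10 to 100 FPKM, 75 lay under 5 FPKM and 44 under 2 FPKM. The plot of levels gives both libraries for the 25 highest rows.

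**Figure D1:**
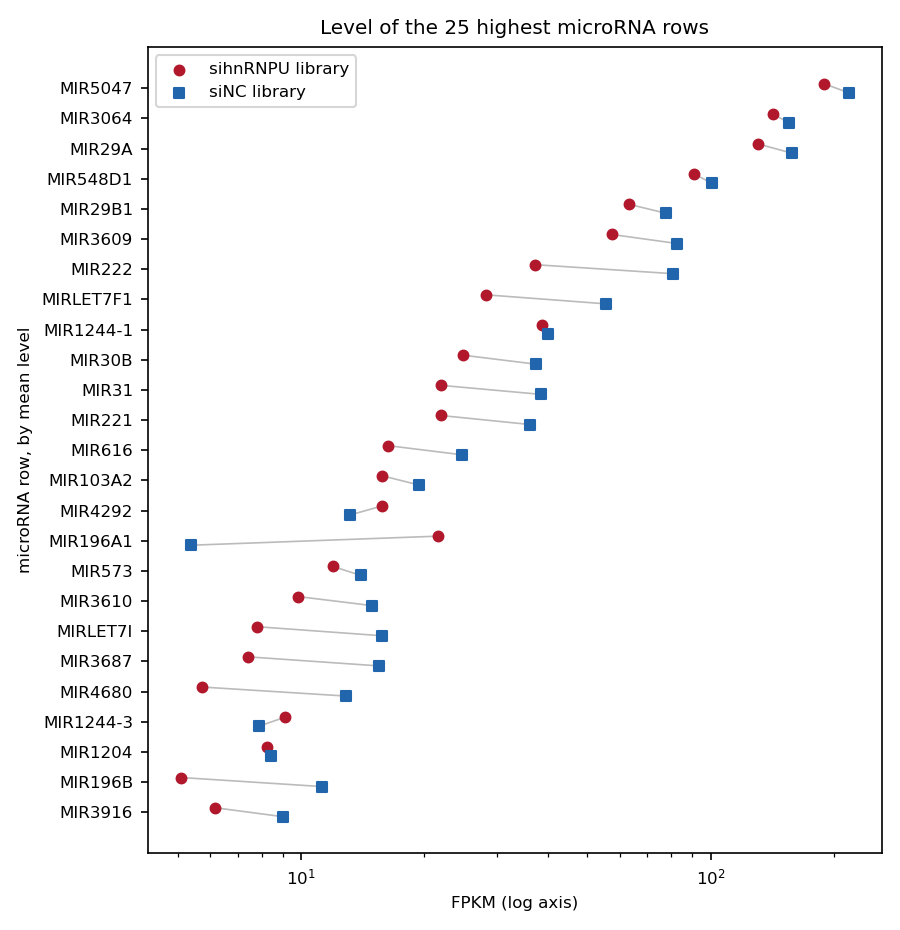
FPKM (log axis) of the 25 microRNA rows with the highest mean, in the sihnRNPU library (circles) and the siNC library (squares), 1 library each, ordered by mean level. The circle lies left of the square in most rows; MIR196A1, at 21.5 FPKM against 5.39 FPKM, is the widest exception.

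As a group the microRNA rows were lower in the sihnRNPU library. Of the 110, 75 (68.2%) had a log2 ratio of (FPKM + 1) below 0 and 35 above it, with a median of -0.23. In bulk RNA, fewer cells that hold a transcript and less of it per cell cannot be told apart. Over all 11567 rows with a mean of at least 1 FPKM, 50% lay below 0 and the median was -0.00021. Another class of short RNA, the 184 snoRNA rows that passed the same minimum, had a median of -0.03. Summed over the 110 rows there were 4005 reads in the sihnRNPU library and 4022 in the siNC library, an FPKM ratio of 0.796 (interval 0.761 to 0.831). The ratio was 0.732 (0.688 to 0.778) without the 5 highest rows, and 0.887 (0.780 to 1.01) over the 75 rows under 5 FPKM. Of the 25 rows with at least 20 reads in both libraries, 22 had a ratio below 0 and 3 above it. As the minimum was set on the mean of both libraries, it let in 13 rows with 1 FPKM in the sihnRNPU library alone and 13 with 1 FPKM in the siNC library alone.

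**Figure D2:**
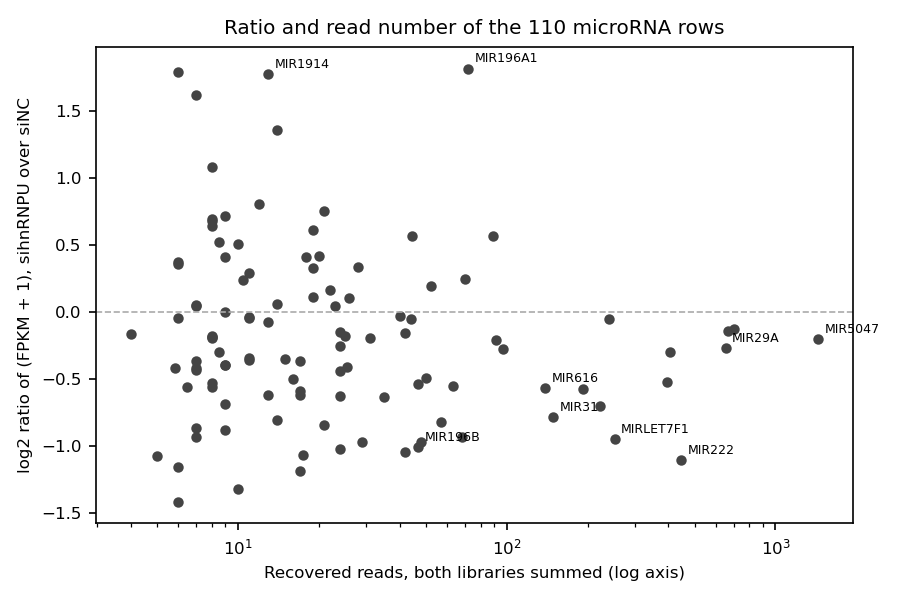
Log2 ratio of (FPKM + 1), sihnRNPU over siNC, of each of the 110 microRNA rows against its recovered reads summed over both libraries (log axis); each point is a row and the dashed line marks equal levels. Rows at or under the median of 17 reads scatter to both sides, and the rows with over 100 reads all lie under the line.

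MIR222 and MIR221, a pair on the X chromosome, had 2 of the lower ratios, and that of MIR222 was the lowest among the 25 rows with at least 20 reads in both libraries. MIR222 (X, 45606479 to 45606500, minus strand, GRCh37) had 37.2 FPKM from 163 reads in the sihnRNPU library, against 81.2 FPKM from 284 reads in the siNC library. Its log2 ratio was -1.10, with an interval of 0.38 to 0.56 for the FPKM ratio. MIR221, 809 bases away (45605649 to 45605670), had 21.9 FPKM from 96 reads, against 36.3 FPKM from 127 reads (-0.70; 0.46 to 0.79). Both rows were thus lower, and together they gave 259 reads in the sihnRNPU library and 411 in the siNC library, a ratio of 0.503 (0.429 to 0.590). The annotation places MIR222 in an intron of the noncoding MIR222HG, which matched no row of the table.

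All 6 let-7 rows were lower in the sihnRNPU library, at 51.3 FPKM against 92.3 FPKM summed over the family and 169 against 248 reads summed over the 6 rows (ratio 0.544, interval 0.445 to 0.665). MIRLET7F1 (chromosome 9, 96938691 to 96938712, plus strand) carried most of them, with 28.3 FPKM from 98 reads in the sihnRNPU library, against 55.7 FPKM from 154 reads in the siNC library (log2 ratio -0.95). It lies between MIRLET7A1 and MIRLET7D in one cluster, and the intervals of both neighbours included 1. MIRLET7A1 had 4.71 against 7.86 FPKM (-0.63; interval 0.29 to 1.23) and MIRLET7D had 6.93 against 7.23 FPKM (-0.05; 0.51 to 1.83). MIRLET7I on chromosome 12, far from this cluster, had 7.78 FPKM from 26 reads, against 15.7 FPKM from 42 reads (-0.93; 0.29 to 0.83). MIRLET7G and MIRLET7A2 rested on too few reads to be read alone, 2 against 8 and 4 against 4. MIRLET7G, at 0.598 against 2.99 FPKM, passed the minimum only through the siNC library, so its place among the 6 lower rows follows from the minimum. Of the 12 rows of the let-7 and mir-98 list, 8 were above 0.

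The miR-29 family held the most reads of any seed family, 545 in the sihnRNPU library and 531 in the siNC library, and its FPKM ratio was 0.820 (0.726 to 0.926). The family is known to silence collagen and DNA methyltransferase mRNAs. MIR29A (chromosome 7, 130561545 to 130561566, minus strand) had 131 FPKM from 333 reads, against 158 FPKM from 321 reads (log2 ratio -0.27; 0.71 to 0.97). MIR29B1, 700 bases away, had 63.3 FPKM from 204 reads, against 78.0 FPKM from 201 reads (-0.30; 0.66 to 0.99). The other cluster of the family, MIR29C and MIR29B2 on chromosome 1, had 8 and 9 reads in all.

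Other single rows of known microRNAs were lower as well. MIR31 (chromosome 9, 21512157 to 21512177, minus strand) had 21.9 FPKM from 62 reads in the sihnRNPU library, against 38.5 FPKM from 87 reads in the siNC library (log2 ratio -0.79; 0.40 to 0.80). MIR30B, of a family that targets SNAI1 among others, had 24.8 FPKM from 87 reads, against 37.5 FPKM from 105 reads (-0.58; 0.49 to 0.89). For MIR34A, at 4.80 against 7.43 FPKM, and MIR103A2, at 15.8 against 19.4 FPKM, the intervals of 0.35 to 1.19 and 0.54 to 1.24 included 1. All 4 rows had a ratio below 0, with an interval that excluded 1 for the 2 rows with over 100 reads in all.

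The miR-196 family was split. MIR196A1, in the HOXB cluster (chromosome 17, 46709894 to 46709915, minus strand), had 21.5 FPKM from 60 reads in the sihnRNPU library, against 5.39 FPKM from 12 reads in the siNC library. Its log2 ratio was 1.82, and its interval was 2.13 to 8.16. MIR196B, in the HOXA cluster (chromosome 7, 27209147 to 27209168, minus strand), had 5.08 FPKM from 17 reads, against 11.2 FPKM from 30 reads (-1.01; 0.23 to 0.85). Their mature strands carry the same seed, and by reads the family stood at 77 against 42. miR-196 is known for silencing HOX mRNAs, HOXB8 among them. MIR196A2, under the minimum, had 3 reads against 4. The annotation places HOXB-AS4 across MIR196A1 and HOXA10-AS across MIR196B, each on the opposite strand. Strand use in counting is not given, and whether the rows share reads with these genes was not tested.

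**Figure D3:**
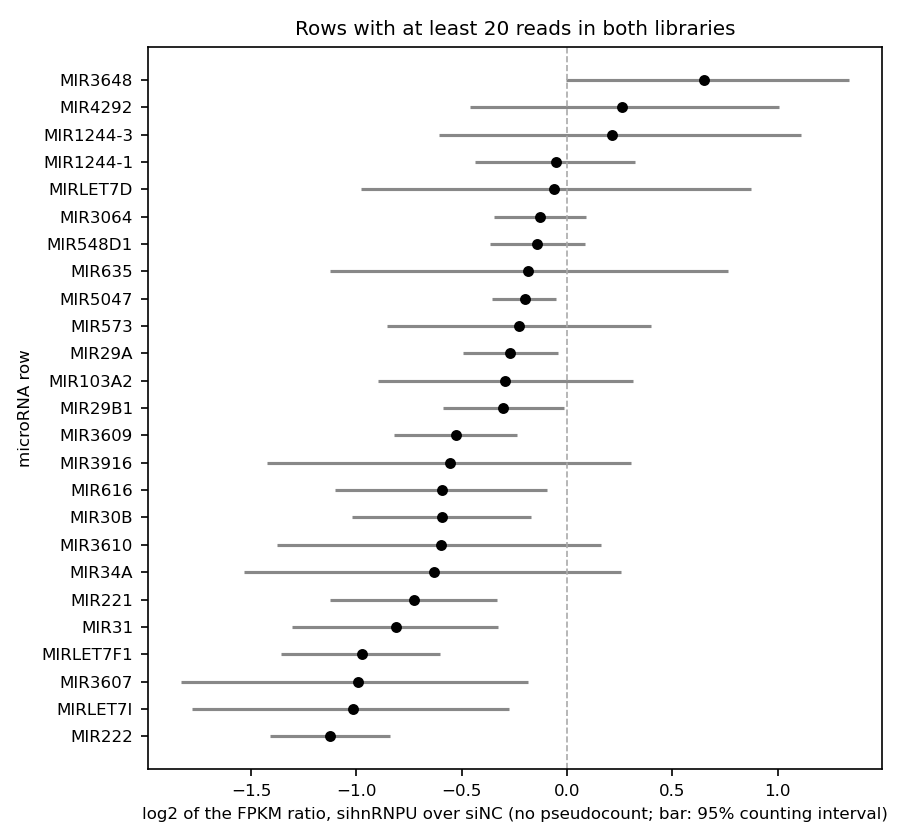
Log2 of the FPKM ratio, sihnRNPU over siNC and with no pseudocount, of the 25 microRNA rows with at least 20 reads in both libraries; bars are 95% counting intervals, and the dashed line marks equal levels. MIR222, MIRLET7I, MIR3607 and MIRLET7F1 lie lowest, and 3 rows have their point above 0, each with a bar that reaches 0 or crosses it.

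A row was called at a log2 ratio of at least 1 in size, given 5 FPKM or more in whichever library was higher. By this rule 1 of 40 microRNA rows was higher in the sihnRNPU library (2.5%, against 0.314% of all 7958 rows) and 5 were lower (12.5%, against 0.754%). The higher row was MIR196A1, and the lower rows were MIR222, MIR4680, MIR196B, MIR4258 and MIR361. Such shares depend on read number. Among rows with at most 100 reads in all, 1 of 27 microRNA rows was higher (3.7%) and 4 were lower (14.8%), against 6.41% each way over 78 other rows. Reads of those other rows rest on fitted lengths and may differ from the true ones. MIR361 had 1.74 FPKM from 5 reads, against 5.24 FPKM from 12 reads, and its interval of 0.09 to 1.02 included 1. MIR4258 had 2.21 FPKM from 8 reads, against 5.53 FPKM from 16 reads (0.15 to 0.99). Both MIR361 and MIR4258 reached 5 FPKM in the siNC library alone, so their direction follows from the minimum.

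Counting intervals lay wholly below 1 in 17 of the 110 rows (15.5%) and above 1 in 4 (3.64%), against 31.8% and 33.7% of the 10736 other rows at all read numbers. At 20 to 100 reads in all, 7 of 35 microRNA rows lay below 1 (20%) and 1 above (2.86%), against 12.7% and 6.52% of 322 other rows. Reads of the other rows rest on fitted lengths and may differ from the true ones, so whether precision was similar was not tested. The 4 rows above 1 were MIR196A1, MIR1914 (12 reads against 1), MIR3176 (12 against 2) and MIR4691 (7 against 0). Apart from MIR196A1 each rested on 14 reads or fewer, and MIR1914 and MIR3176 were named after their values were seen. MIR1914, MIR3176 and MIR4691 lay under 1 FPKM in the siNC library and passed the minimum only through the sihnRNPU library, so their direction follows from the minimum. With at least 1 FPKM in both libraries, 17 rows lay below 1 and 1 above.

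The rows of known families were also described apart from the rest. Of 24 families or clusters on a list of known microRNAs, 13 had a row among the 110, with 23 rows in all: 21 had a ratio below 0 and 2 above, with a median of -0.37. Among the 21, MIRLET7G passed the minimum only through the siNC library, so its direction follows from the minimum. The other 87 rows had 54 below and 33 above, with a median of -0.16. Summed reads gave a ratio of 0.666 (0.617 to 0.718) for the 23 and 0.873 (0.827 to 0.923) for the 87. The list's rows above 0 were MIR25, at 8.82 FPKM in the sihnRNPU library and 5.62 FPKM in the siNC library (29.5 and 15 reads; 0.83 to 3.20), and MIR101-1, with 4 reads against 3. MIR93, 185 bases from MIR25 and like it in an intron of MCM7, had 4 reads against 5. The remaining members were MIR125B1 (4.57 against 5.36 FPKM), MIR429 (2.42 against 3.41 FPKM), MIR27B (1.29 against 1.95 FPKM) and MIR92A1 (1.29 against 1.81 FPKM), each with 16 reads or fewer a library.

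Many rows of known microRNAs were at or near 0. Whether these libraries kept RNAs as short as a mature microRNA was not tested, so a 0 is not read as absence of the mature form. MIR21, one of the most abundant microRNAs of colorectal tumours, had no read in the sihnRNPU library and 1 in the siNC library. In the mir-17 to mir-92a-1 cluster MIR92A1 alone was above 0, and the other 5 rows, MIR17, MIR18A, MIR19A, MIR20A and MIR19B1, were at 0. All 20 rows of 6 families were at 0 in both libraries: mir-143 and mir-145, mir-155, mir-181, mir-182 to mir-96, mir-192 to mir-215, and mir-214 and mir-199. The mir-17 to mir-92a-1 host, MIR17HG, had 2.14 against 2.28 FPKM.

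Because such reads may come from host transcripts, each row was set beside the gene whose listed position held it on the same strand. Such a gene was found for 64 rows, 59 different genes in all, and 1 row lay in more than 1 gene. For 52 of the 64 rows the host was an mRNA, for 10 a miscRNA and for 2 a ncRNA. Another 20 rows had a host by name in GENCODE 29 whose listed position did not hold them. DDX5 and TRRAP, for example, are placed on alternate scaffolds in the table, and the listed position of PVT1 does not hold MIR1204. Of the rest, 12 had a named host with no row, and for 14 no host was found. Of these 14, 2 were not in the annotation used, so their host could not be looked up. By GENCODE 29 basic transcripts, 71 rows lay in introns, 19 in exons and 5 partly in exons.

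Host ratios and microRNA ratios showed little relation. Over the 64 rows the median log2 ratio was -0.19 for the microRNA rows and -0.08 for their hosts, and the median difference was -0.17, with 40 rows below their host and 24 above. In 34 of 64 pairs both lay on the same side of 0. Pearson's r was -0.05 and Spearman's rho -0.04 across the 64 pairs, which share libraries and in part hosts. For the 23 pairs with at least 20 reads they were 0.13 and 0.06. With hosts taken by name, the 15 rows inside exons had an r of 0.38 and a rho of 0.35, and the 61 rows inside introns an r of -0.09 and a rho of -0.08. The exonic pairs include MIR4680 and PDCD4, the lowest host ratio among them (-1.27), and r was not recomputed without that pair. The split follows basic transcripts: some intronic rows, MIR7-1, MIR1914 and MIR4691 among them, lie in exons of the full GENCODE 29 set. No difference between exons and introns is read from these values. Levels per length varied widely against those of the host. Intronic rows of protein-coding genes reached a median of 16.5% of the host FPKM in the sihnRNPU library and 15.9% in the siNC library (53 rows), and exonic rows 14.9% and 24.2% (11 rows). The intronic rows ran between 0.730% and 321% in the sihnRNPU library and between 0% and 573% in the siNC library, and the exonic rows between 0.269% and 258% and between 0.352% and 201%. MIR3609 stood at 321% of TRRAP in the sihnRNPU library and at 459% in the siNC library.

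**Figure D4:**
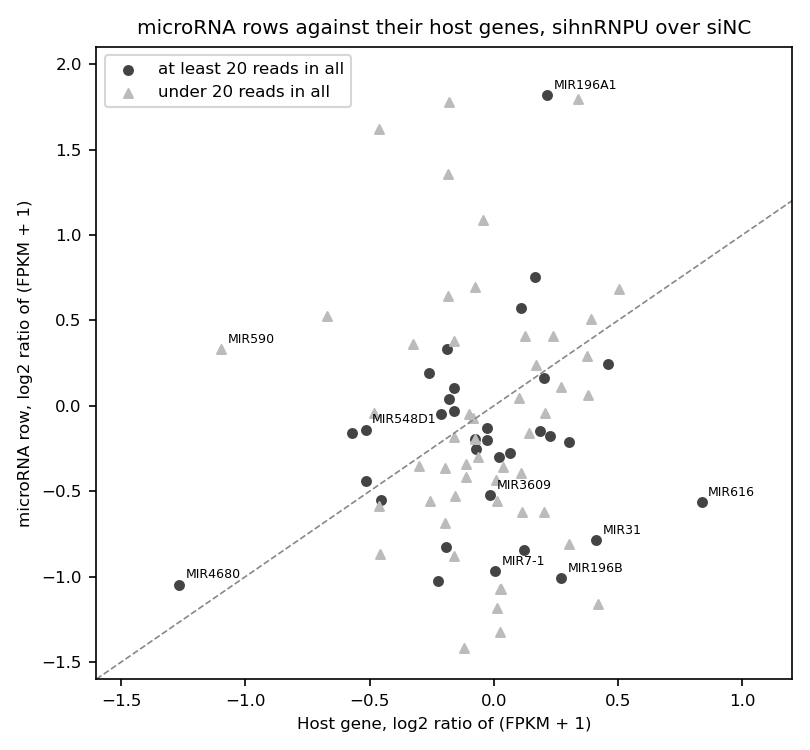
Log2 ratio of (FPKM + 1), sihnRNPU over siNC, of each microRNA row (vertical) against that of its host gene (horizontal), by position or, failing that, by name; circles are rows with at least 20 reads in all and triangles rows with fewer, and the dashed line marks equal ratios. The points spread vertically around hosts near 0; MIR4680 lies close to the line, and MIR616, MIR31 and MIR196B lie far under it.

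Of 78 pairs for which the host also had a counting interval, 66 had overlapping intervals, 6 had the microRNA wholly below its host and 6 wholly above. Host reads rest on fitted lengths, so the host intervals may be too wide or too narrow. No such share was computed for other pairs of overlapping rows, so whether these counts are unusual was not tested. Below the host stood MIR5047, MIR3609, MIR31, MIR616, MIR196B and MIR7-1. MIR616 had 16.3 FPKM from 63 reads in the sihnRNPU library, against 24.6 FPKM from 76 reads in the siNC library, while its host DDIT3, the gene of the stress factor CHOP, went the other way at 51.4 against 28.3 FPKM (0.84). MIR31 likewise was lower while MIR31HG, the noncoding RNA whose intron holds it, had 0.877 against 0.410 FPKM (0.41). In the sihnRNPU library MIR31 lay at 2501% of its host's FPKM and MIR616 at 31.7%, and in the siNC library they lay at 9400% and 87.0%. MIR616 was named after its values were seen.

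MIR3609 had 57.5 FPKM, against 82.9 FPKM (log2 ratio -0.52; 0.57 to 0.85), inside an intron of TRRAP at 17.9 against 18.1 FPKM (-0.01). MIR7-1, whose mature strand targets EGFR, had 2.28 FPKM from 10 reads, against 5.43 FPKM from 19 reads (-0.97; 0.17 to 0.95), while its host HNRNPK had 313 against 312 FPKM. MIR196B was lower while the readthrough transcript HOXA10-HOXA9 had 16.2 against 13.2 FPKM (0.27). In these 3 pairs the host ratio lay near or above 0.

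DDX5, an RNA helicase that assists DROSHA, holds the 2 highest rows in its introns. It had 325 against 331 FPKM (-0.03). MIR5047 had a log2 ratio of -0.20 (0.78 to 0.96) and MIR3064, 393 bases away, one of -0.13 (0.79 to 1.06). The rows reached 58.1% and 43.7% of the DDX5 level in the sihnRNPU library, and 65.6% and 46.9% in the siNC library. Of the pair, only MIR5047 lay wholly below DDX5, by a small margin and with fractional reads.

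Above the host stood MIR196A1, MIR548D1, MIR590, MIR1914, MIR3176 and MIR4691, of which the last 3 passed the minimum only through the sihnRNPU library, so nothing is read from the equal counts. For MIR196A1 and MIR590 no listed position held the row, and the host was taken by name in GENCODE 29 alone. HOXB7, which by that annotation holds MIR196A1 in an intron, had 28.9 against 24.8 FPKM (0.21). Set against HOXB7, MIR196A1 stood at 74.6% in the sihnRNPU library and 21.8% in the siNC library. MIR548D1, of a family derived from transposable elements, had 91.3 against 101 FPKM (-0.14), while ATAD2 had 73.3 against 105 FPKM (-0.52). MIR590, named after its values were seen, had 3.11 against 2.27 FPKM from 12 and 7 reads, while EIF4H had 69.6 against 150 FPKM (-1.10). MIR548D1 had fractional reads, and its values are uncertain.

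Of the rows named above, some lie in exons. MIR4680 (chromosome 10, 112657889 to 112657909, plus strand) lies in an exon of PDCD4, an inhibitor of translation initiation. It had 5.71 FPKM from 15 reads in the sihnRNPU library, against 12.9 FPKM from 27 reads in the siNC library (log2 ratio -1.05; 0.22 to 0.86). PDCD4 had 21.5 against 53.1 FPKM (-1.27). MIR1244-1, in an exon of PTMA, which encodes prothymosin alpha, had 38.8 against 40.2 FPKM (-0.05), and PTMA had 1125 against 1304 FPKM (-0.21). Both pairs had the microRNA and its host on the same side of 0, and MIR1244-1 had fractional reads, so its values are uncertain. Reads were also fractional for MIR1825 and MIR1244-3, whose intervals included 1. MIR1825, in an exon of POFUT1, which encodes a protein O-fucosyltransferase, had 5.45 against 3.86 FPKM (0.41; 0.55 to 5.19), and POFUT1 had 13.6 against 12.4 FPKM (0.13). MIR1244-3, placed by the table in the pseudogene PTMAP4, had 9.14 against 7.88 FPKM (0.19; 0.66 to 2.16), and PTMAP4 had 32.5 against 39.2 FPKM (-0.26).

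Further pairs had overlapping intervals, and several rows were on the other side of 0 from their host. MIR573, in an intron of the helicase gene DHX15, had 11.9 FPKM from 47 reads in the sihnRNPU library, against 14.0 FPKM from 44 reads in the siNC library (-0.21), and DHX15 had 116 against 94.2 FPKM (0.30). MIR103A2, in an intron of PANK2, a kinase of coenzyme A synthesis, had a log2 ratio of -0.28, and PANK2 had 32.9 against 31.4 FPKM (0.07). MIR4292, in an intron of RABL6, had 15.7 FPKM from 42 reads, against 13.1 FPKM from 28 reads (0.24), on the same side as RABL6 at 95.2 against 68.9 FPKM (0.46). MIR3610, in an exon of the cohesin gene RAD21, had 9.81 against 14.9 FPKM (-0.55), beside 229 against 315 FPKM for RAD21 (-0.46).

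One long noncoding RNA, PVT1, a neighbour of MYC, carries several of the rows in its introns and so allows a comparison within 1 host. PVT1 had 7.03 FPKM in the sihnRNPU library and 7.99 FPKM in the siNC library (-0.16). MIR1204, whose host is PVT1 by name alone, had 8.25 against 8.45 FPKM from 22 and 18 reads (-0.03). MIR1205 had 4 reads against 2, MIR1206 had 3 against 6, and MIR1207 had 4 against 4. The last 3 lie to both sides of 0 on reads too few to order them.

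Some rows coincide with RNAs of other kinds. MIR3607, inside COX7C, had 3.50 FPKM in the sihnRNPU library and 6.97 FPKM in the siNC library (-0.82), while COX7C, a subunit of cytochrome c oxidase, had 663 against 758 FPKM (-0.19). MIR3651 overlaps the snoRNA SNORA84, with 4.88 against 3.67 FPKM for the microRNA and 3.49 against 2.96 FPKM for SNORA84. MIR3653 overlaps SNORD125, with 1.14 against 1.72 FPKM and 1.05 against 1.31 FPKM. In both snoRNA pairs the rows lay on the same side of 0 and the annotations overlap. Whether MIR3607 lies in an exon or an intron of COX7C was not determined, since the annotation used does not list it. MIR3648 and MIR3687 lie 358 bases apart on chromosome 21, with log2 ratios on opposite sides of 0. They had 8.23 against 5.24 FPKM (59 and 30 reads) and 7.41 against 15.5 FPKM (18 and 30 reads). The interval of MIR3648, 0.996 to 2.53, included 1, and that of MIR3687 was 0.25 to 0.89. Summed over both, the ratio was 1.03 (0.72 to 1.46). The hairpin length of these 2 rows and of MIR3607 was fitted from the values, so their read numbers may differ from the true ones by a whole factor.

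Values near the minimum show how thin the edge is. Just inside it were MIR4691, MIR589 and MIR921, with means of 1.03, 1.02 and 1.01 FPKM. Just outside were MIR548AQ, MIR4784 and MIR3179-2, with means of 0.975, 0.939 and 0.923 FPKM. Each of these rows held 2 to 7 reads in its higher library.

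Genes that make and use microRNAs were set beside the rows, as a list of 37. Of these, 35 had a mean of at least 1 FPKM, and LIN28A and LIN28B, which block let-7 maturation, were at 0 in both libraries. No gene of the 35 differed by 2-fold. There were 20 below 0 and 15 above, with a median of -0.02, which turned to 0.0099 after rescaling to the same sum. At a log2 ratio of -0.5 or less stood 3 genes (6.41% of all rows did), and at 0.5 or more 1 gene (5.4% of all rows). AGO2, the Argonaute that can cut its target, had 69.5 FPKM in the sihnRNPU library and 115 FPKM in the siNC library (-0.72). DICER1 had 17.1 against 27.9 FPKM (-0.67), and PRKRA, a partner of DICER1, had 6.62 against 10.1 FPKM (-0.55). On the other side METTL3, which methylates adenosines in mRNA and primary microRNAs, had 23.99 against 16.1 FPKM (0.54), and PABPC1, which binds poly(A) tails, had 1290 against 990 FPKM (0.38). For the nuclear steps, DROSHA had 13.4 against 12.5 FPKM, DGCR8 had 13.8 against 15.2 FPKM and XPO5 had 26.7 against 23.1 FPKM. AGO2 and DICER1 were thus lower, while the genes of hairpin excision and export differed by little, and whether either bears on the microRNA rows was not tested.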

How the data were processed

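The authors deposited 1 FPKM value per gene and library for 2 libraries, 1 per group, with groups taken from the treatment labels. The submitters' processing notes name Bowtie and GRCh37. Annotation, counting program and strand use: not given in the sources used here. Rows that overlap on opposite strands may therefore share reads. Depth was read from the steps of the low FPKM values, and reads were recovered as FPKM times hairpin length and depth. The length came from RefSeq in 84 rows, from GENCODE 29 in 23 and from a fit between 40 and 180 bases in 3. For rows of other types, hosts among them, the length was the shortest that gave whole reads in both libraries. Their read numbers and intervals may therefore differ from the true ones. Over all microRNA rows above 0 with a RefSeq length, 87.4% were whole within 1e-06 in each library. GENCODE coordinates, which use another build, served for names and for exons and introns only.

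Ratios are log2 of (FPKM + 1), sihnRNPU over siNC; the pseudocount of 1 FPKM understates differences of low rows. A call needed a log2 ratio of at least 1 in size and 5 FPKM in the higher library. The microRNA rows, the families and the pathway list were chosen with earlier results of these data known. Rows named are the 12 highest by level, the 8 highest and 8 lowest ratios at 5 FPKM, the 3 on each side of the minimum, all members of the listed families, hosts, and the 2 highest and 2 lowest pathway genes; others are marked as named after their values were seen, as are DROSHA, DGCR8, XPO5, PRKRA, MIR196A2, MIR3651, MIR3653, MIR573, MIR3610, MIR3607 and the rows in PVT1, and the rows named through clusters or through intervals that did not meet those of the host. Alternatives were other pseudocounts, rescalings, minimums, row types and host rules. The recovery was tested on simulated data with whole reads at the same lengths that it then used. That test cannot detect a wrong length or divided reads. Python 3.11.15, pandas 2.3.3, numpy 2.4.6, scipy 1.17.1 and matplotlib 3.10.9 were used.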

Additional observations from a re-analysis of the deposited data

How the results depend on the processing

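No paired analysis was possible because neither siRNA had more than 1 library. The count of microRNA rows at least 2-fold lower with sihnRNPU, 5, was 9 at the pseudocount of 0.1 FPKM and 1 at that of 5 FPKM, 3 at a minimum mean of 5 FPKM, 3 among miRNA rows, 2 among Precursor_miRNA rows and 1 (MIR222) among rows with at least 20 reads in both libraries. The count at least 2-fold higher, 1, was 0 among miRNA rows and 0 among rows with at least 20 reads, since MIR196A1 is a Precursor_miRNA row with 12 reads in the siNC library. The median of the rows, -0.23, stayed below 0 throughout: -0.30, -0.26 and -0.13 at pseudocounts of 0.1, 0.5 and 5 FPKM; -0.21, -0.28 and -0.25 after rescaling to the same sum, by the median ratio and by the upper quartile; -0.11 with no minimum beyond a value above 0 in both, and -0.18, -0.27 and -0.41 at minimum means of 0.5, 2 and 5 FPKM; -0.36 for miRNA and -0.14 for Precursor_miRNA rows; -0.30 with at least 20 reads in both; and -0.28 with whole reads alone, which was chosen after seeing the data. The difference from the host, -0.17, was -0.18 with genes of either strand (69 pairs), -0.25 and -0.073 at pseudocounts of 0.1 and 5 FPKM, and -0.14 with hosts by name (80 pairs), also chosen after seeing the data. The pathway median of -0.02 turned to 0.0099 after rescaling to the same sum, and was -0.061 by the median ratio and -0.038 by the upper quartile. HNRNPU stood at -1.61 with a pseudocount of 5 FPKM, -1.62 at the same sum and -1.69 by the median ratio. Rescalings add a factor and pseudocounts a constant; the cause of the other shifts was not tested. None of 276 recomputed ratios of 46 named rows changed sign. MIR4691, with 0 reads in the siNC library, followed the pseudocount, at 4.44, 2.36 and 0.50 with 0.1, 0.5 and 5 FPKM in place of 1.62, and MIRLET7G stood at -2.15 with 0.1 FPKM in place of -1.32. Depth limits most rows: with a median of 17 reads over both libraries, the counting interval of the ratio included 1 in all but 21 of the 110 rows.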
